A study of Mus musculus with 19 samples.

Results

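The comparison is between OT-I CD8 T cells recovered from irradiated hosts at day 40 and the same kind of cell recovered from unirradiated hosts, 8 of the 19 arrays of a mouse expression study. Members were taken from the sample labels: the 4 arrays titled day 40 after homeostatic proliferation, and the 4 whose descriptions name an unirradiated host. OT-I cells are CD8+ T cells that all carry 1 transgenic receptor for an ovalbumin peptide, and every group of the study received them by transfer into B6 mice and was sorted again from lymph node and spleen, given in the labels as ln/spleen. The irradiated group was sorted at day 40 and the unirradiated group at day 6. No unirradiated group was sorted at day 40, so the irradiation of the host and the time since transfer cannot be told apart. The remaining arrays, 8 from irradiated hosts titled day 5 and 3 from irradiated hosts at day 115, enter below only through the shared spread and as later or earlier values of the same genes. The labels state neither the sex, the age, the radiation dose nor whether arrays came from separate animals, so p-values measure only the spread between these samples, which may be technical.

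Irradiation empties a mouse of most of its lymphocytes. T cells transferred into such a host divide in response to self-peptides on MHC molecules and to the cytokines IL-7 and IL-15, without meeting a foreign antigen, and this is called homeostatic proliferation. Naive CD8 T cells that have divided in this way come to resemble memory cells: textbook features are chemokine receptors for inflamed tissue, a receptor for IL-18, stored transcripts of the chemokine CCL5, and cytotoxic molecules ready for use. Fewer cells of a type and less RNA per cell cannot be told apart in RNA of sorted populations.

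Each array gave 1 signal per probe set, a set of short oligonucleotides for 1 transcript, in linear array units. Differences are on the log2(signal + 16) scale with standard errors, so that a difference of 1 is a doubling of signal + 16, and the changes of dim genes are understated. A probe set was called when limma gave an adjusted p under 0.05 over all 8695 tested probe sets. Median signals of the 8 arrays lay between 49.6 and 52.3. The arrays of the whole study formed 2 clusters that cut across the groups: day-40 arrays 1 and 2 lay in cluster 1, and day-40 arrays 3 and 4 lay in cluster 2 with all unirradiated arrays. Correlations between day-40 arrays were 0.965 and 0.990 within a cluster, with a median of 0.909 over the 4 pairs from different clusters. Each result was therefore also fitted with the cluster as a term and within cluster 2 alone, where 2 day-40 arrays stand against 4 unirradiated arrays.

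The sorted cells carried the markers of their label in both groups. Cd8a, the chain that defines CD8 T cells, had signals of 2888, 2418, 2316 and 2510 in unirradiated arrays 1 to 4 and 2024, 2305, 2739 and 3201 in day-40 arrays 1 to 4, and the groups overlapped. Cd3e, a signalling chain of the T cell receptor complex, read 283, 291, 287 and 277 against 268, 244, 213 and 179.7. The day-40 arrays were all lower for Cd3e, but the difference of -0.32 ± 0.13 did not pass the threshold (adjusted p = 0.26). None of the 10 tested genes of the CD8 T cell identity list was called, and their median difference was 0.03. Within cluster 2, Cd3g, another chain of that complex, passed at -0.88 (adjusted p = 0.0343).

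The largest rises among the named genes were those of S100a6, Ccl5 and Cxcr3, and the largest falls those of Egr1 and Cnn3. Both IL-18 receptor chains, Stat4, Fasl and perforin were also higher at day 40, and the integrin chains Itgae and Itga4 lower. Limma called 130 probe sets, 1.5% of those tested, with 101 higher (1.16%) and 29 lower (0.334%) at day 40. At least 2-fold changes made up 46 of the rises and 16 of the falls. Counted as 1 probe set per gene, 79 of 6409 genes rose (1.23%) and 24 fell (0.374%), together 1.61%. For all 130 called probe sets every day-40 array lay beyond every unirradiated array, as it did for 13.8% of all tested probe sets (8.6% higher and 5.23% lower). The median difference over all 6409 genes was 0.034, and 56.1% of them were higher at day 40.

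The calls were set against the array clusters. With the cluster as a term, 194 probe sets passed (2.23%, with 1.81% higher and 0.426% lower), 112 of them among the 130. Within cluster 2, 454 passed (5.22%, with 4.05% higher and 1.17% lower), 114 of them among the 130. All 130 kept their sign there, which was fixed in advance because every day-40 array lay beyond every unirradiated array. When the day-40 arrays of cluster 1 were left out and the spread was taken from all remaining arrays, 46 passed, 35 of them among the 130. Of the 49 called genes that are named by the rule below, 17 passed in every alternative fit that tested them (20 fits, or 19 where the filter at the 50th percentile left the gene out), namely S100a6, Ccl5, Cxcr3, Fasl, Il18r1, Il18rap, Pou6f1, Ccr2, H2-Q10, Cdk5rap3, Errfi1, Aqp9, Cnn3, Nrip1, Cd9, Itgae and Cxxc5. The other 32 all lost their call in the fit without the day-40 arrays of cluster 1, and further losses are given beside each gene. Without unirradiated array 1, 2, 3 or 4 the count of calls was 62, 70, 54 or 59, and without day-40 array 1, 2 or 4 it was 66, 82 or 84.

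**Figure D1:**
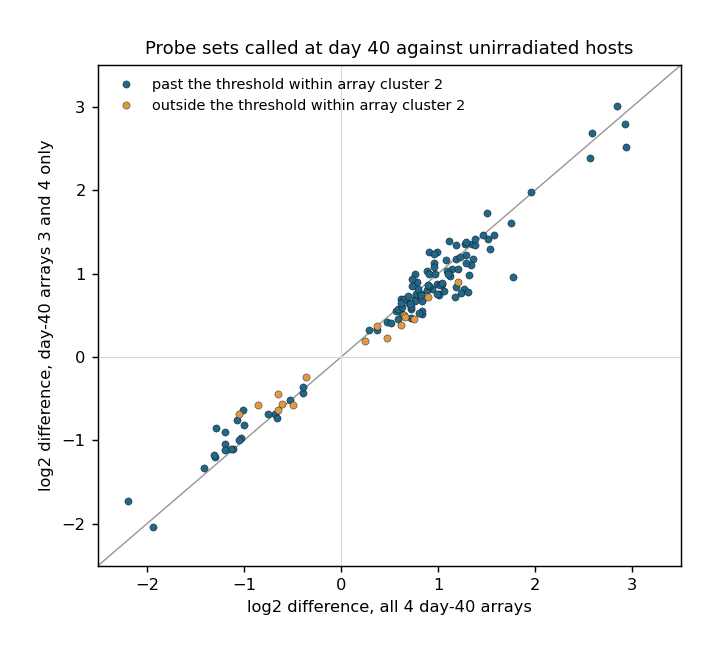
Log2 difference between day 40 and unirradiated hosts of the 130 called probe sets, from all 4 day-40 arrays (x axis) and from day-40 arrays 3 and 4 only (y axis, within array cluster 2), with the line of equality; colour marks whether the probe set also passed within cluster 2. Every point lies on the same side of 0 on both axes, as groups without overlap require, and 114 of the 130 passed on both.

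Chemokines and their receptors gave some of the largest rises. Ccl5, a chemokine that memory CD8 T cells keep as stored transcript, had signals of 181, 359.6, 172 and 552 in unirradiated arrays 1 to 4 and 1735, 2050, 1999 and 2855 in day-40 arrays 1 to 4. Unirradiated arrays 2 and 4 were the higher ones of their group, yet all 4 lay well under every day-40 array. The difference was 2.84 ± 0.43 (adjusted p = 0.00124), with the second largest rise of any named gene. Cxcr3, the receptor for chemokines that interferon gamma induces in inflamed tissue, read 140.3, 151, 159 and 191 against 1170, 1133, 843 and 966. Both groups were tight for Cxcr3, the 2 day-40 arrays of cluster 1 stood slightly above those of cluster 2, and the difference was 2.56 ± 0.24 (adjusted p = 4.66e-06). Ccr2, the receptor for monocyte chemoattractant chemokines, read 30, 26.5, 34.8 and 34.3 against 79.5, 135, 81 and 136. The unirradiated signals of Ccr2 lay close to the filter level of 26.4 and the day-40 arrays fell into a lower pair, 1 and 3, and a higher pair, 2 and 4, each with an array from either cluster. The rise of Ccr2 was 1.35 ± 0.20 (adjusted p = 0.00082).

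The other members of that list were outside the threshold. This and all other gene lists were chosen with earlier results of these data known, so their counts and medians describe the lists and test nothing. Of 13 tested chemokine and receptor genes 3 rose and none fell, beside 1.23% and 0.374% of all genes. The median difference was 0.20, and 10 of the 13 were higher, beside 56.1% of all genes. Ccr7, which brings naive and central memory cells to lymph nodes, read 82.6, 107, 116 and 104 against 101, 229, 82.9 and 91, with day-40 array 2 alone standing high and a difference of 0.16 ± 0.32 (adjusted p = 0.825). Xcl1, a chemokine that attracts dendritic cells, differed by 0.17 ± 0.08 (adjusted p = 0.33), and the inflammatory chemokine genes Ccl3 and Ccl4 by -0.14 and 0.11 (adjusted p = 0.539 and 0.655).

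Among receptors of cytokines, the binding chain and the signalling chain for IL-18 were both higher. IL-18 is a macrophage cytokine that drives interferon gamma release from memory T cells without antigen. Il18r1, the ligand-binding chain, read 158, 146, 88.9 and 166 in unirradiated arrays and 296, 418, 487 and 484 in day-40 arrays. Unirradiated array 3 and day-40 array 1 were the low arrays of their groups, and the groups stayed apart, with a difference of 1.50 ± 0.21 (adjusted p = 0.000548). Il18rap, the signalling chain, read 60.6, 64.8, 64.3 and 65.5 against 144, 188, 122 and 143. All day-40 arrays lay clearly above the narrow unirradiated range, with a difference of 1.04 ± 0.16 (adjusted p = 0.00185). Stat4, the transcription factor that carries the IL-12 signal, read 174, 181, 192 and 234 against 470.1, 666, 524 and 603. The groups did not overlap and no array cluster stood apart within day 40. The rise of Stat4 was 1.46 ± 0.26 (adjusted p = 0.00597).

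Il4ra, the receptor chain for IL-4 and IL-13, read 202, 211, 147 and 149 against 689.8, 465, 280.2 and 321. Day-40 arrays 1 and 2, those of cluster 1, were the highest, and the difference was 1.17 ± 0.27 (adjusted p = 0.0383) over all arrays, 0.75 with the cluster term and 0.72 within cluster 2. The call ended without day-40 array 1 or 2 or unirradiated array 1, 2, 3 or 4 (log2 0.93 to 1.25) and with quantile normalisation (1.18) and in a fit on the arrays of these groups only (1.17), and a second, dim probe set of Il4ra differed by -0.16 ± 0.12 (adjusted p = 0.506). Ifnar2, a chain of the receptor for type I interferon, rose by 0.91 ± 0.22 (adjusted p = 0.0386) in its brighter probe set, and the Ifnar2 call ended with the cluster term (0.80, adjusted p = 0.0649) and without the day-40 arrays of cluster 1 (0.99, adjusted p = 0.146). Of 30 tested genes of cytokine receptors and signalling these 5 rose and none fell, beside 1.23% and 0.374% of all genes. The list's median difference was 0.28, or 0.34 within cluster 2, beside 0.034 for all genes.

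The receptor chains for the homeostatic cytokines did not pass. Il7r, the IL-7 receptor chain, read 1589, 1511, 1632 and 2369 against 1344, 2160, 2435 and 3022, with overlapping groups and a difference of 0.30 ± 0.29 (adjusted p = 0.627). Il2rb, the chain shared by the IL-2 and IL-15 receptors, read 39.6, 38.6, 41 and 43.9 against 98.1, 59.3, 50.3 and 43.2. Day-40 array 1 was the highest and array 4 lay within the unirradiated range, and the difference was 0.43 ± 0.16 (adjusted p = 0.194). Il12rb1, a chain of the IL-12 receptor upstream of Stat4, differed by 0.23 ± 0.16 (adjusted p = 0.502), and Socs2, a feedback inhibitor of cytokine signals, by -0.04 ± 0.16 (adjusted p = 0.923).

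Of the cytotoxic genes, a death ligand, perforin and 1 granzyme rose, while the best known granzymes did not pass. Fasl, the ligand through which T cells kill cells that carry Fas, read 25.4, 27.9, 31.5 and 30.1 against 141, 102, 97.7 and 108. Its 8 values had little spread in either group, and the difference of 1.51 ± 0.10 had the smallest adjusted p of any gene (9.53e-08). The unirradiated signals of Fasl lay around the filter level of 26.4, so the size of the difference depends on the pseudocount. It ran from 0.92 to 1.92 over the alternative fits. Prf1, the pore-forming protein perforin, read 89.6, 103, 109 and 109 against 164, 209, 166 and 225. Prf1 was high in day-40 arrays 2 and 4, the groups stayed apart, and the rise was 0.79 ± 0.15 (adjusted p = 0.00828). Gzmm, a granzyme of innate-like and cytotoxic lymphocytes, read 22.7, 26.4, 31.9 and 21.3 against 155, 345, 67.1 and 61.7. The unirradiated signals of Gzmm also lay around the filter level. All day-40 arrays were higher for Gzmm, but the arrays of cluster 1 much more so than those of cluster 2. Its difference was 1.77 ± 0.35 (adjusted p = 0.0127) over all arrays, 1.34 with the cluster term and 0.96 within cluster 2 (adjusted p = 0.00168), and the call ended in a fit on the arrays of these groups only (1.77) and with a replicate block (1.77).

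**Figure D2:**
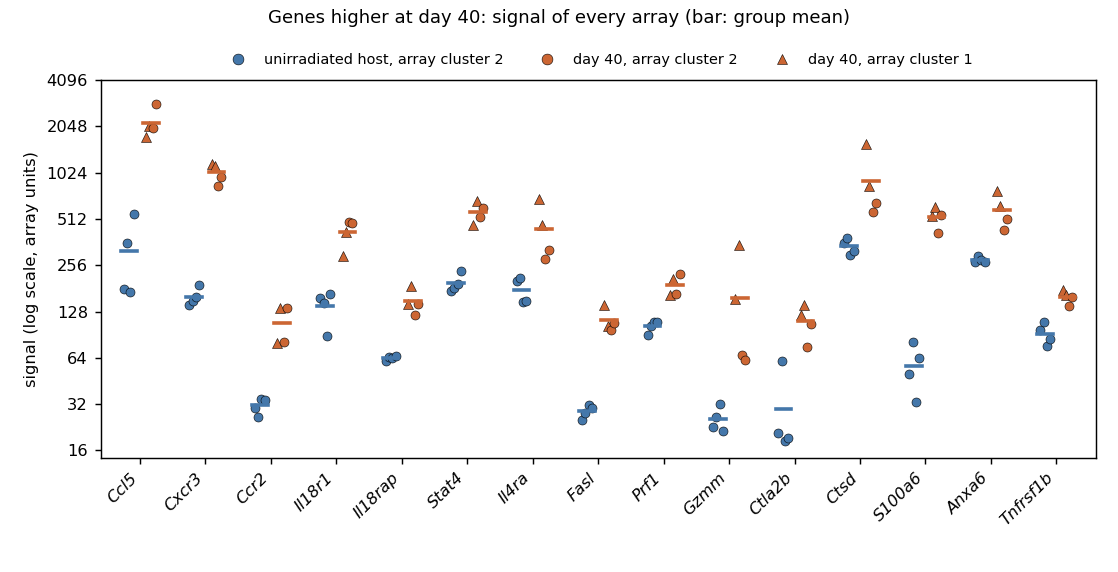
Signal of 15 genes that were called higher at day 40, on a log axis in array units, for each of the 4 unirradiated arrays (blue) and 4 day-40 arrays (orange; triangles for array cluster 1, circles for cluster 2), with a bar at the group mean. The groups do not overlap for any of the 15 genes. For Cxcr3, Il18rap, Il4ra, Gzmm, Ctla2b, Ctsd, Anxa6 and Tnfrsf1b the day-40 arrays of cluster 1 lie above those of cluster 2, and for Il18r1 below.

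Ctla2b, a small inhibitor of cathepsin-type proteases found in activated T cells and mast cells, read 20.8, 60.7, 18.5 and 19.4 against 121, 142, 75 and 106. Unirradiated array 2 stood well above its group's other arrays and still under all day-40 arrays, and the rise was 1.53 ± 0.27 (adjusted p = 0.00558). Ctsd, a protease of lysosomes, read 358, 386, 296 and 318 against 1574, 842, 566 and 652. Day-40 array 1 stood far above the others of its group. The difference for Ctsd was 1.27 ± 0.29 (adjusted p = 0.0342) over all arrays and 0.82 within cluster 2, and the call ended without day-40 array 1 or 2 or unirradiated array 1, 2, 3 or 4 (log2 0.97 to 1.33) and with quantile normalisation (1.26) and in a fit on the arrays of these groups only (1.27). Gzmb, the main granzyme of effector killers, read 70.9, 96.2, 72.3 and 65.5 against 136, 70.2, 76.4 and 79.5. Only day-40 array 1 lay above the unirradiated range, and Gzmb differed by 0.18 ± 0.44 (adjusted p = 0.863). Gzma differed by -0.09 ± 0.18 (adjusted p = 0.829). In all, 5 of 15 tested cytotoxic and effector genes rose and none fell over all arrays, beside 1.23% and 0.374% of all genes. Within cluster 2, 5 rose and 1 fell, beside 4.05% and 1.17% of all probe sets. The 1 that fell was Srgn, listed with the granule genes, at -0.79 (adjusted p = 0.0286). Over all arrays Srgn had means of 557 and 214 at day 40, and its difference was -1.44 ± 0.49 (adjusted p = 0.153). The median difference of the list was 0.18.

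The 250 bases before the start of transcription are shown for 4 genes that rose and 1 that fell, taken from RefSeq windows on the mouse build GRCm38.p6, because these are control regions of genes whose groups lay far apart. Sequences run 5′ to 3′ on the strand of the gene, and capitals mark CpG dinucleotides, the sites of DNA methylation. Il18r1 has 3 windows in the table, of which the first listed is shown.
Fasl, chr1:161788496-161788745, minus strand: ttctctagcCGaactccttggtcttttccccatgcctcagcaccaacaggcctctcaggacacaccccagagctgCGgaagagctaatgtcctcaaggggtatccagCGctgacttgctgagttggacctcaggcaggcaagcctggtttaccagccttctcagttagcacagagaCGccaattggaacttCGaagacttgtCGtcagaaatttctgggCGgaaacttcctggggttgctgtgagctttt
Cxcr3, chrX:101734148-101734397, minus strand: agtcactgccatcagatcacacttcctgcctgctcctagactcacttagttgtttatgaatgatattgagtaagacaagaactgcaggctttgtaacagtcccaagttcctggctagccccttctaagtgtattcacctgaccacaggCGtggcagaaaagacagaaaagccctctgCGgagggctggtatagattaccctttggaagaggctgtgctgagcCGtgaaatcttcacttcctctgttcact
Il18r1, chr1:40465302-40465551, plus strand: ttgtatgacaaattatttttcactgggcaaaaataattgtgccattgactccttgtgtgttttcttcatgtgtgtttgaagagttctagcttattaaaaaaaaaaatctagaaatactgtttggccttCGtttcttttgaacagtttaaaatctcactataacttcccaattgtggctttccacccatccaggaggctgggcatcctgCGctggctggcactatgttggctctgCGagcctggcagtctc
S100a6, chr3:90612644-90612893, plus strand: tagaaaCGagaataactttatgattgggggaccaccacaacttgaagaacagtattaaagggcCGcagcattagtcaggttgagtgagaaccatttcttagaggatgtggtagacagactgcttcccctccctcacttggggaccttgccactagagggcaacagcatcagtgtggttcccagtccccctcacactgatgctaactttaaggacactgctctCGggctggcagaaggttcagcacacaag
Cnn3, chr3:121426291-121426540, plus strand: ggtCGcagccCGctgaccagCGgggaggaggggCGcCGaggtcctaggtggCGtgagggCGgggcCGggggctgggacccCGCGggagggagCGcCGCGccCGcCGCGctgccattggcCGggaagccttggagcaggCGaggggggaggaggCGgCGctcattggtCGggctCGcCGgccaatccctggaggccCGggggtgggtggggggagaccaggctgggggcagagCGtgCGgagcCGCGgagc

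These windows held 7 CpG in Fasl, 3 each in Cxcr3, Il18r1 and S100a6, and 28 in Cnn3. Over the longer set, 66 of the 79 genes that rose and 17 of the 24 that fell had a window, as had 5148 of the 6409 tested genes. A window with at most 5 CpG was found for 20 of the 66 risen genes (30.3%), 3 of the 17 fallen genes (17.6%) and 17.3% of all tested genes. Known motifs were searched on both strands in the window from 250 bases before to 50 after the start. The T-box core GGTGTG was in 13.6% of risen, 11.8% of fallen and 18.1% of all tested genes, and in 19% of all promoters. The AP-1 motif TGANTCA was in 10.6%, 5.88% and 5.59% (7.93% of all promoters), and the GAS element of STAT factors, TTCNNNGAA, in 6.06%, 5.88% and 6.72% (8.47% of all promoters). The EGR motif GCGTGGGCG was in 1 risen gene, Pfkp, and 1 fallen gene, Frmd6, or 1.52% and 5.88%, beside 1.07% of tested genes and 0.625% of all promoters. The CRE motif TGACGTCA was in 3.03% of risen and of tested genes and in no fallen gene, with 1.88% of all promoters. The CArG box was in 1.52%, 0% and 1.48% (1.57% of all promoters), and the kappaB motif in no called gene, beside 0.175% of tested genes and 0.144% of all promoters. In the Fasl window shown, the T-box core lies on the opposite strand at 190 bases before the start, where the printed strand reads cacacc. No motif overlaps were counted, and no test was made of these shares.

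Markers of memory CD8 T cells rose in part. S100a6, a calcium-binding protein of the S100 family, had the largest rise of any named gene: signals of 50.6, 80.8, 32.9 and 63.5 in unirradiated arrays went to 534, 616, 414 and 542 at day 40. The lowest day-40 array, 3, still stood far above the highest unirradiated array, 2, and the difference was 2.92 ± 0.31 (adjusted p = 2.36e-05). Among its relatives, S100a4 differed by 0.07 ± 0.17 (adjusted p = 0.86) and S100a10 by -0.22 ± 0.25 (adjusted p = 0.696). Tnfrsf1b, a receptor for TNF on memory T cells, read 97.8, 109, 75.9 and 85.1 against 177, 164, 139.8 and 159.6. The groups of Tnfrsf1b were apart by a small margin, the rise was 0.71 ± 0.14 (adjusted p = 0.0122), and the call ended without unirradiated array 3 (log2 0.64). Anxa6, a membrane-binding annexin, read 270, 293, 276 and 269 against 783, 626, 437 and 509. The unirradiated arrays were nearly equal for Anxa6, and day-40 arrays 1 and 2 were the highest. The Anxa6 difference was 1.01 ± 0.25 (adjusted p = 0.0422), and the call ended without day-40 array 1, 2 or 4 or unirradiated array 1, 2, 3 or 4 (log2 0.87 to 1.07) and with a pseudocount of 64 (0.91), with no filter (1.01) and with quantile normalisation (1.06).

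In the memory list of 26 tested genes 5 rose and 1, the integrin chain Itga4, fell, beside 1.23% and 0.374% of all genes. The median difference was 0.36 over all arrays, 0.23 with the cluster term and 0.14 within cluster 2. In each of the latter fits 7 members rose and 1 fell. Of all probe sets, 1.81% were higher and 0.426% lower with the cluster term, and 4.05% and 1.17% within cluster 2. Ahnak, which was not called over all arrays (0.62, adjusted p = 0.553), differed by 1.39 with the cluster term (adjusted p = 0.00565). Within cluster 2 Ahnak differed by 1.15 (adjusted p = 0.00269). Lgals1, the galectin of activated T cells, read 122, 332, 138 and 135 in unirradiated arrays and 1487, 1291, 233 and 216 at day 40. The day-40 arrays of cluster 2 lay within the range of the unirradiated arrays and those of cluster 1 far above it. The difference was 1.67 ± 0.55 (adjusted p = 0.144) over all arrays and 0.40 within cluster 2 (adjusted p = 0.644). Anxa2 differed by 0.72 ± 0.26 (adjusted p = 0.182). Bcl2, which protects lymphocytes from death, was called in no probe set over all arrays, but its brightest probe set differed by 1.11 with the cluster term (adjusted p = 0.0292) and 1.10 within cluster 2 (adjusted p = 0.036), where the signals were 806 and 733 against 224, 385, 384 and 456. Day-40 arrays 1 and 2, at 298 and 342, lay within the unirradiated range of that probe set. Cd44, Gzmk, Ctla2a and Anxa1 had only probe sets below the filter level, and Ly6c2, Tbx21 and Tcf7 had no probe set of their own.

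Several class I MHC probe sets rose. These genes encode the molecules that present peptides to CD8 T cells, and the Qa region holds their non-classical relatives. H2-Q4 read 572, 472, 371 and 443 against 1626, 1399, 1154 and 1451. The groups were far apart for H2-Q4, and the difference was 1.57 ± 0.31 (adjusted p = 0.0122), a call that ended without unirradiated array 3 (log2 1.47). H2-Q10 read 39.9, 36.9, 38 and 51 against 190.5, 125, 93.1 and 121. Day-40 array 1 was the highest, and the rise was 1.34 ± 0.17 (adjusted p = 0.000228). H2-Q5 rose by 1.29 ± 0.28 (adjusted p = 0.0253), and that call ended without day-40 array 1, 2 or 4 or unirradiated array 1, 2, 3 or 4 (log2 1.18 to 1.36). The probe sets of class I genes can bind near-identical copies of each other, so which gene changed is uncertain.

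The next genes were chosen after their values were seen. Of 3 probe sets for the classical gene H2-D1, the brightest differed by 0.72 ± 0.15 (adjusted p = 0.0223) and the next by 1.38 ± 0.26 (adjusted p = 0.00838), but the dimmest by 0.18 ± 0.21 (adjusted p = 0.694). The brightest probe set of H2-K1 read 4220, 3520, 3257 and 3562 against 5229, 5732, 5149 and 5514. The groups were apart with a smaller difference, 0.57 ± 0.12 (adjusted p = 0.0197). A second probe set of H2-K1 rose by 0.83 ± 0.20 (adjusted p = 0.0432) and the third, dim one differed by -0.04 ± 0.10 (adjusted p = 0.879). All 4 of these calls ended without the day-40 arrays of cluster 1, at adjusted p = 0.298 and 0.105 for H2-D1 and 0.174 and 0.373 for H2-K1. B2m, the light chain common to these molecules, read 6440, 6768, 6418 and 6116 against 4107, 4603, 6346 and 5876, with no rise and a difference of -0.32 ± 0.27 (adjusted p = 0.586). Ly6e, an interferon-induced surface protein, rose from 2851 ± 339 to 5047 ± 487 (SD, n = 4 each), by 0.82 ± 0.17 (adjusted p = 0.0155). The Ly6e call ended without day-40 array 1 or unirradiated array 2, 3 or 4 (log2 0.78 to 0.81) and with quantile normalisation (0.76), and a second, dim probe set differed by 0.09 ± 0.22 (adjusted p = 0.857). Over all arrays, Ly6e was the 1 called gene among 27 tested interferon-stimulated genes, beside 1.61% of all genes called. Within cluster 2, 4 members of the list rose and 1 fell, beside 4.05% and 1.17% of all probe sets. Besides Ly6e, Mx1, Irf1 and Usp18 rose there (0.66, 0.67 and 0.88, adjusted p = 0.011, 0.0214 and 0.0381). Isg15 fell there (-0.61, adjusted p = 0.0298). The median difference of that list was 0.11.

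Integrins changed in both directions. Itgae, the chain that binds E-cadherin on epithelial cells and marks tissue-resident T cells, read 58.3, 76.5, 72 and 74 in unirradiated arrays and 23.2, 24.7, 27.7 and 26.7 at day 40. The day-40 values lie at the filter level and far below all unirradiated arrays, and the difference was -1.05 ± 0.13 (adjusted p = 0.000112). Itga4, the alpha chain of VLA-4, read 49.5, 49.6, 39.3 and 48 against 16.4, 22.9, 25.5 and 20.6. The fall of Itga4 was -0.75 ± 0.13 (adjusted p = 0.0031), to values below the filter level. Itgav, a chain of vitronectin receptors, read 221, 362, 316 and 341 against 168, 208, 181 and 200. Unirradiated array 1 came close to the day-40 arrays, and the difference of Itgav was -0.65 ± 0.15 (adjusted p = 0.0397). That call ended without day-40 array 1, 2, 3 or 4 or unirradiated array 2, 3 or 4 (log2 -0.69 to -0.57) and with no filter (-0.65), in a fit on the arrays of these groups only (-0.65), with the cluster term (-0.59), with a replicate block (-0.65) and within cluster 2 (-0.64), and a second probe set differed by -0.51 ± 0.19 (adjusted p = 0.199).

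Itgb1, the beta chain that pairs with Itga4, went the other way and was chosen after its values were seen. Its brighter probe set read 658, 1092, 813 and 1114 against 1588, 2031, 2463 and 3043. All day-40 arrays were higher, the difference was 1.29 ± 0.35 (adjusted p = 0.0747) over all arrays and 1.76 with the cluster term (adjusted p = 0.000281). The other probe set of Itgb1 rose by 1.18 ± 0.20 (adjusted p = 0.00325). Of 16 tested genes of integrins and adhesion 3 fell and none rose in its brightest probe set, beside 0.374% and 1.23% of all genes. The median difference of that list was 0.12. Cd9, a tetraspanin that associates with integrins, read 112, 117, 98.3 and 118 against 44.5, 37.1, 49 and 38.1. No array of Cd9 came near the other group, and the fall was -1.13 ± 0.14 (adjusted p = 0.000121).

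Cytoskeletal genes held the clearest single fall. Cnn3, an actin-binding calponin, read 155, 187, 116 and 121 in unirradiated arrays and 29.4, 26.6, 22 and 22.9 at day 40. The day-40 signals lie around the filter level and far below the lowest unirradiated one, so the difference of -1.94 ± 0.15 (adjusted p = 5.69e-07) depends on the pseudocount. Rflnb, a regulator of the actin crosslinker filamin, read 1145, 1355, 1277 and 1371 against 416, 555, 759.8 and 742. Day-40 arrays 1 and 2 were the lowest, and the fall was -1.07 ± 0.20 (adjusted p = 0.00828). Myo1f, a myosin of leukocyte movement, rose from 125 ± 7.34 to 284 ± 67.8 (SD, n = 4 each), by 1.06 ± 0.19 (adjusted p = 0.00705). In the cytoskeleton list of 23 tested genes 1 rose and 2 fell, beside 1.23% and 0.374% of all genes, with a median difference of -0.01. Within cluster 2, 1 rose and 4 fell, beside 4.05% and 1.17% of all probe sets. These falls include Actn1 and Actb (-0.86 and -0.68, adjusted p = 0.00351 and 0.0227). Over all arrays Actn1 and Actb differed by -1.55 and -0.54 (adjusted p = 0.124 and 0.487).

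**Figure D3:**
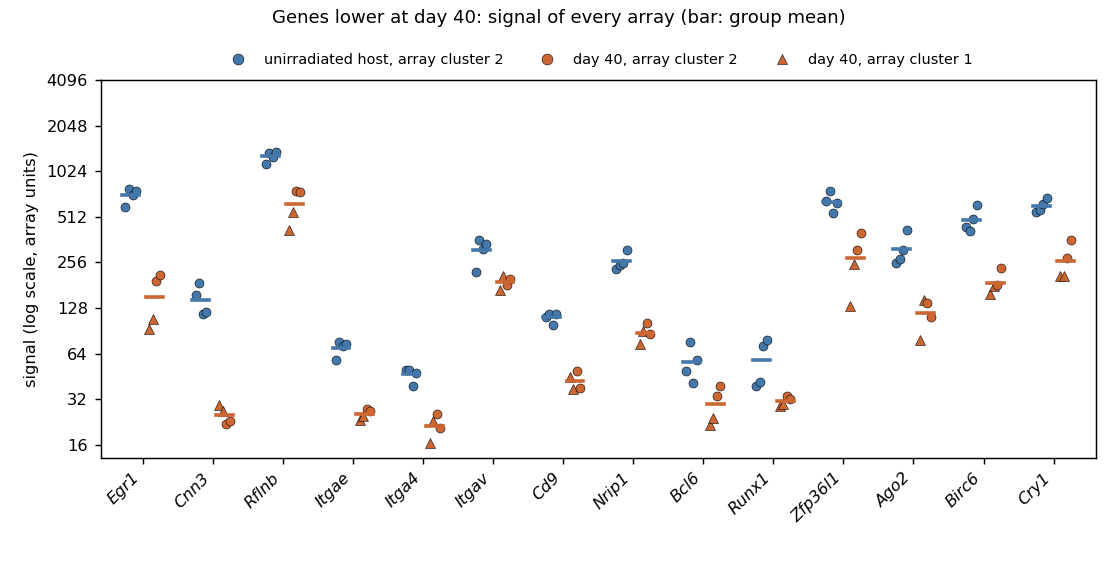
Signal of 14 genes that were called lower at day 40, on a log axis in array units, for each unirradiated array (blue) and day-40 array (orange; triangles for array cluster 1, circles for cluster 2), with a bar at the group mean. The groups do not overlap for any of the 14 genes, and the day-40 signals of Cnn3, Itgae and Itga4 lie around the filter level of 26.4.

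Among transcription regulators, Egr1 had the largest fall of any named gene. Egr1 is an immediate early factor that signals from the T cell receptor switch on. Its signals were 593, 781, 716 and 761 in unirradiated arrays and 92.9, 108, 193 and 211 at day 40. The arrays of cluster 1 were the lowest, those of cluster 2 were still far under all unirradiated arrays, and the difference was -2.19 ± 0.37 (adjusted p = 0.00343). Its relative Egr2 read 73.3, 109.6, 55.5 and 54.8 against 25.8, 36.5, 55.8 and 46, where day-40 array 3 overlapped the unirradiated range, and missed the threshold at -0.63 ± 0.16 (adjusted p = 0.0612), but passed without that array at -0.75 (adjusted p = 0.0285). Nr4a1, the orphan receptor also induced by the T cell receptor, differed by -0.17 ± 0.19 (adjusted p = 0.682). Of 20 tested immediate early and receptor-induced genes Egr1 alone was called over all arrays, beside 1.61% of all genes. Nfkbia, another member, missed the threshold at -1.51 ± 0.41 (adjusted p = 0.0719). It passed with the cluster term (-0.84, adjusted p = 0.0077) and within cluster 2 (-0.78, adjusted p = 0.0203). The list's median was -0.10 over all arrays and -0.31 with the cluster term.

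Nrip1, a corepressor of nuclear receptors, read 232, 247, 253 and 310.5 against 74.2, 90, 102 and 86.3. The arrays of each group lay close together, and the fall was -1.41 ± 0.20 (adjusted p = 0.00082). Cxxc5, a zinc finger protein that binds CpG-rich DNA, read 82, 94.4, 60.8 and 61 against 29.8, 22.3, 30.5 and 29.1. Unirradiated arrays 1 and 2 were the highest of that gene, and the fall was -1.03 ± 0.16 (adjusted p = 0.0019). Pou6f1, a POU-domain transcription factor, went up: it read 72.3, 64.5, 70 and 67 against 200.1, 194, 181 and 245. All day-40 arrays lay far above every unirradiated one, with a rise of 1.38 ± 0.17 (adjusted p = 0.000112).

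Of 21 tested transcription factors of CD8 T cell fate, Bcl6 and Runx1 fell and none rose, beside 0.374% and 1.23% of all genes. These counts use the brightest probe set of each gene, and the median difference was 0.00. Bcl6, a repressor linked to memory, read 49.1, 75.8, 40.8 and 57.9 against 21.6, 24.2, 33.3 and 39.3. The lowest unirradiated and the highest day-40 array almost met, and the difference of -0.65 ± 0.15 (adjusted p = 0.0357) was -0.56 with the cluster term (adjusted p = 0.0643). The Bcl6 call ended without day-40 array 1 or 2 or unirradiated array 1, 2 or 4 (log2 -0.69 to -0.53) and in a fit on the arrays of these groups only (-0.65), with the cluster term (-0.56), with a replicate block (-0.65) and within cluster 2 (-0.44). Runx1 read 39.2, 41.4, 72 and 79.2 against 28.6, 29.6, 33.4 and 32.1. Unirradiated arrays 1 and 2 lay just above the day-40 arrays, and the difference of Runx1 was -0.61 ± 0.15 (adjusted p = 0.0386), a call that ended without day-40 array 1, 2, 3 or 4 or unirradiated array 3 or 4 (log2 -0.64 to -0.48) and in a fit on the arrays of these groups only (-0.61), with the cluster term (-0.53), with no intensity trend (-0.61), with a replicate block (-0.61) and within cluster 2 (-0.56).

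In their brightest probe sets, the other factors of that list did not pass the threshold over all arrays. Slfn2, another member that is described below, rose in its dimmer probe set (1.31, adjusted p = 0.0386). The brighter probe set of Slfn2 passed within cluster 2 (0.62, adjusted p = 0.0495). Eomes, a T-box factor, differed by 0.19 ± 0.23 (adjusted p = 0.709). Id2, an inhibitor of E proteins, read 163, 265, 144 and 116 against 259.5, 397, 172 and 399, and its groups overlapped (0.76 ± 0.32 (adjusted p = 0.267)). Id3 differed by 0.00 ± 0.31 (adjusted p = 0.997). Klf2, which keeps T cells quiescent and recirculating, differed by 0.12 ± 0.20 (adjusted p = 0.798). Lef1, a factor of naive T cells, differed by 0.16 ± 0.28 (adjusted p = 0.798) in its brighter probe set. The other probe set of Lef1 read 204, 238, 241 and 272 against 307, 303, 97.6 and 82.5. Day-40 arrays 1 and 2 lay above the unirradiated arrays and arrays 3 and 4 below, so the difference was -0.46 ± 0.47 (adjusted p = 0.651) over all arrays and -1.24 with the cluster term (adjusted p = 0.00116).

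Further genes that rose had varied functions. Aqp9, a channel for water and glycerol that memory CD8 T cells use, read 36.8, 30.7, 38.3 and 34.3 against 91.2, 115, 87.9 and 147. No array overlapped, and the rise was 1.28 ± 0.16 (adjusted p = 0.000121). Errfi1, a feedback inhibitor of EGF receptors, rose by 1.29 ± 0.13 (adjusted p = 9.79e-06) and Cdk5rap3, a binding partner of a CDK5 activator, by 1.29 ± 0.20 (adjusted p = 0.00126), each in its brighter probe set. Their other probe sets differed by only 0.12 ± 0.08 (adjusted p = 0.441) and 0.16 ± 0.17 (adjusted p = 0.664). Ptpn22, the phosphatase that damps T cell receptor signalling, read 656, 990.2, 903 and 927 against 1686, 1695, 1552 and 1902. The day-40 arrays were close together and all higher, with a rise of 0.97 ± 0.20 (adjusted p = 0.0188), a call that ended without day-40 array 4 or unirradiated array 1 or 3 (log2 0.85 to 1.00). Ptpn22 was the 1 called gene of 22 tested ones of the T cell receptor complex and its proximal signalling, beside 1.61% of all genes. That count uses the brightest probe set of each gene. A dimmer probe set of Ptprc, another member, rose by 1.96 (adjusted p = 0.00226). Within cluster 2, Ptpn22 and Tec rose (Tec at 0.62, adjusted p = 0.0244) and Cd3g fell, beside 4.05% and 1.17% of all probe sets. Pfkp, the platelet-type phosphofructokinase of glycolysis, rose by 0.91 ± 0.18 (adjusted p = 0.0127), and its second probe set by 0.89 ± 0.16 (adjusted p = 0.00556). The first of these calls ended without unirradiated array 3 (log2 0.78).

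Golm1, a Golgi membrane protein, rose from 150.3 ± 31 to 404 ± 113, by 1.32 ± 0.28 (adjusted p = 0.0222), and its call ended without day-40 array 1 or 2 or unirradiated array 2, 3 or 4 (log2 1.19 to 1.33). Gramd3, which holds a GRAM lipid-binding domain, rose from 145 ± 22.2 to 383 ± 166, by 1.23 ± 0.29 (adjusted p = 0.0386), with 0.77 within cluster 2. The Gramd3 call ended without day-40 array 1 or 2 or unirradiated array 1, 2, 3 or 4 (log2 0.99 to 1.29) and with quantile normalisation (1.23) and with a replicate block (1.23), and its second probe set differed by 0.52 ± 0.13 (adjusted p = 0.0624). Kcnj8, a potassium channel subunit, read 25.6, 23.7, 23.9 and 24.9 against 46.7, 45.1, 32.1 and 44.5, a small rise of 0.51 ± 0.10 (adjusted p = 0.00944) from signals around the filter level. Of the 130 called probe sets, 14 had no single gene symbol and are not named here.

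A gene with probe sets that disagreed was Ptprc, the leukocyte phosphatase CD45, chosen after its values were seen. The dimmer probe set read 58.4, 47.5, 72.7 and 90.3 against 178, 485, 235 and 400. All day-40 arrays were higher there, with a difference of 1.96 ± 0.32 (adjusted p = 0.00226). The brighter probe set read 1384, 1724, 1300 and 1511 against 749.8, 1200, 1801 and 2176 and differed by -0.10 ± 0.33 (adjusted p = 0.897). T cells splice Ptprc into isoforms, and whether that bears on the 2 probe sets was not tested. Slfn2, a gene linked to T cell quiescence and also picked afterwards, rose by 1.31 ± 0.31 (adjusted p = 0.0386) in its dimmer probe set, while the brighter one differed by 1.13 ± 0.34 (adjusted p = 0.101). The dimmer probe set of Slfn2 read 139.7, 149.9, 159.7 and 179.5 against 624, 578, 286 and 274. Day-40 arrays 1 and 2, those of cluster 1, were the highest, the difference was 0.78 within cluster 2 (adjusted p = 0.0124), and the call ended without those arrays in the fit on all remaining ones (adjusted p = 0.569).

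The remaining falls were in genes of varied function. Ago2, the Argonaute protein that carries microRNAs, read 254, 270, 311 and 419.6 against 78.8, 144, 138 and 112. Unirradiated array 4 and day-40 array 1 were the extremes of their groups, and the fall was -1.30 ± 0.26 (adjusted p = 0.0162), a call that ended without day-40 array 1 or unirradiated array 3 or 4 (log2 -1.29 to -1.14). Birc6, a large ubiquitin ligase that blocks apoptosis, went from 491 ± 88.1 to 188 ± 31.8, a difference of -1.31 ± 0.28 (adjusted p = 0.0214). Its call ended without day-40 array 1 or 2 or unirradiated array 1, 3 or 4 (log2 -1.36 to -1.20). Zfp36l1, a protein that marks messenger RNAs for decay, read 652, 755, 544 and 633 against 132, 249, 307 and 398. Day-40 array 1 was the lowest, and the difference was -1.29 ± 0.31 (adjusted p = 0.0422) over all arrays and -0.85 within cluster 2. The Zfp36l1 call ended without day-40 array 1, 2 or 3 or any 1 unirradiated array (differences down to -1.38, and nearest 0 without day-40 array 1, where Zfp36l1 fell by 1.00) and with no filter (-1.29), with median centring (-1.31) and with a replicate block (-1.29).

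Mfhas1, a leucine-rich repeat protein, went from 347 ± 67.3 to 140.1 ± 14.3, a difference of -1.20 ± 0.21 (adjusted p = 0.00558). Cry1, a repressor in the circadian clock, read 549.8, 566, 621 and 683 against 208, 208, 274 and 362. Day-40 arrays 1 and 2 were nearly equal and lowest, the difference was -1.19 ± 0.26 (adjusted p = 0.0266), and the call ended without day-40 array 1 or 2 or unirradiated array 1, 2, 3 or 4 (log2 -1.23 to -1.09). Rev3l, the catalytic subunit of DNA polymerase zeta, differed by -1.05 ± 0.26 (adjusted p = 0.0451) and by -0.68 within cluster 2 (adjusted p = 0.0609). The Rev3l call ended without day-40 array 1, 2 or 3 or unirradiated array 1, 2, 3 or 4 (log2 -1.13 to -0.87) and with a pseudocount of 1 (-1.10), with no filter (-1.05), with median centring (-1.07) and within cluster 2 (-0.68). Ppic, cyclophilin C, fell by 1.00 ± 0.22 (adjusted p = 0.0264), and its call ended without day-40 array 1 or 2 or unirradiated array 1, 2, 3 or 4 (log2 -1.05 to -0.93). Stt3b, a subunit of the enzyme that adds N-glycans, differed by -0.86 ± 0.21 (adjusted p = 0.0423), and its call ended without day-40 array 1 or 2 or unirradiated array 1, 2, 3 or 4 (log2 -0.93 to -0.71) and with no filter (-0.86), with median centring (-0.88) and within cluster 2 (-0.58).

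Over all arrays, lists of division and of basic metabolism held 0 or 1 called gene each, beside 1.61% of all genes. At that share lists of this size hold few calls. None of 48 tested cell cycle and DNA replication genes was called, with a median difference of -0.01. Top2a, a topoisomerase of dividing cells, read 34.9, 47.1, 37.6 and 32 against 35.9, 35.4, 37.6 and 31.8, and its groups overlapped (-0.07 ± 0.46 (adjusted p = 0.948)). Mki67, the proliferation marker Ki-67, stood at 20.8 ± 8.01 in unirradiated arrays and 16.1 ± 1.33 at day 40, with both means under the filter level (-0.18 ± 0.44 (adjusted p = 0.863)). The errors of Top2a and Mki67 include the day-5 arrays, whose SDs were 186 and 116, and so do not measure the spread of the 8 arrays. Within cluster 2, in a limma fit without day-5 arrays, Top2a differed by -0.08 (adjusted p = 0.804) and Mki67 by -0.17 (adjusted p = 0.679). None of 43 oxidative phosphorylation genes, 33 proteasome genes, 27 ribosomal protein genes and 12 p53 target genes was called, at medians of -0.07, 0.04, 0.05 and -0.04. The oxidative phosphorylation median was -0.20 within cluster 2, where 4 members fell and 1 rose, beside 5.22% of all probe sets called there. Within cluster 2, 1 cell cycle, 1 proteasome and 1 p53 target gene also fell, and 3 ribosomal protein genes fell and 1 rose. Glycolysis had 1 of 18 genes called, Pfkp, at a median of 0.14, but 2 rose with the cluster term and 3 within cluster 2. Txnip passed in both of those fits (1.11 and 1.25, adjusted p = 0.0232 and 0.00176), and Pkm within cluster 2 (0.81, adjusted p = 0.0087). Apoptosis regulators had 1 of 27 called, Tnfrsf1b, at 0.08, but 4 rose in each of those fits. Of all probe sets, 1.81% were called higher with the cluster term and 4.05% within cluster 2. No NK-type receptor among 7 was called, at a median of 0.22, with Klrd1 differing by -0.31 ± 0.25 (adjusted p = 0.561) and Klrk1 by 0.22 ± 0.10 (adjusted p = 0.285).

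**Figure D4:**
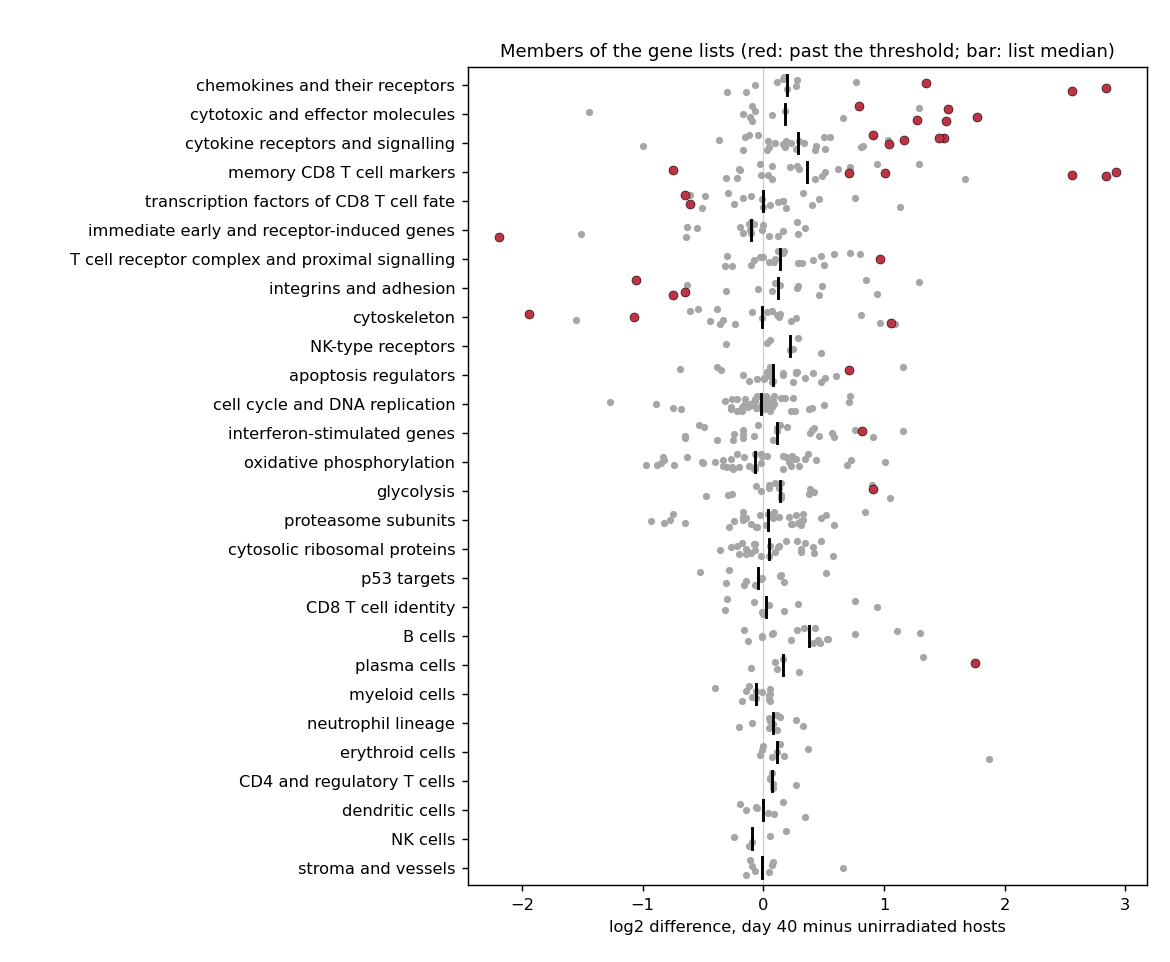
Log2 difference between day 40 and unirradiated hosts for the tested members of the gene lists with 5 or more tested, 1 row per list (y axis); red points passed the threshold, grey points did not, and the black bar is the list median. The lists of chemokines, cytotoxic molecules, cytokine receptors and memory markers hold 3, 5, 5 and 5 genes that rose, beside 1.23% of all genes. The cell cycle, oxidative phosphorylation, proteasome and ribosomal lists hold none. The lists were chosen with earlier results of these data known, so these counts do not test the lists against each other.

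Markers of other cell types were measured beside these results. Of 18 tested B cell genes none was called over all arrays and 14 were higher at day 40, beside 56.1% of all genes, with a median difference of 0.38 (0.14 with the cluster term and 0.22 within cluster 2). Cd72 and Ighm were called with the cluster term (1.00 and 0.63, adjusted p = 0.031 and 0.0266), and Cd72, Ighm, Ms4a1, Cd22 and Blk within cluster 2 (1.07, 0.65, 0.47, 0.41 and 0.47, adjusted p = 0.0248, 0.0262, 0.0261, 0.0222 and 0.0151). The summed signal of the list was 1673 to 2032 in unirradiated arrays and 2483 to 4236 in day-40 arrays. The immunoglobulin heavy chain gene Ighm differed by 1.11 (adjusted p = 0.0792) and the class II MHC gene H2-Aa by 1.30 (adjusted p = 0.169), while the B cell genes Cd79a, Pax5 and Ighd differed by 0.08, -0.01 and -0.01. Of 7 plasma cell genes 1 was called (1 with the cluster term and 2 within cluster 2), the light chain gene Igkv6-23, beside 1.61% of all genes. Igkv6-23 read 37.3, 31.8, 51.4 and 42.8 against 118, 312, 162 and 151. Day-40 array 2 was the highest, all day-40 arrays lay above the unirradiated ones, and the rise was 1.75 ± 0.37 (adjusted p = 0.0197). The Igkv6-23 call ended without day-40 array 2 or unirradiated array 1, 2 or 4 (log2 1.49 to 1.77). The summed signal of the plasma cell list was 343.9 to 416.4 in unirradiated arrays and 563.8 to 1062 in day-40 arrays.

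Of 9 erythroid genes none was called, and the sum was 536.1 to 694 against 672.3 to 1371, with the alpha globin gene Hba-a1 differing by 1.87 (adjusted p = 0.186). Hba-a1 passed within cluster 2, at 1.34 (adjusted p = 0.0419). No member of the lists for myeloid cells (13 tested), neutrophil lineage (11), dendritic cells (8), stroma and vessels (8), CD4 and regulatory T cells (6), NK cells (5) and megakaryocytes and platelets (3) was called over all arrays, and their medians lay between -0.09 and 0.08. Within cluster 2, 1 of these genes passed, Apoe of the stroma and vessels list, at 0.37 (adjusted p = 0.0329). The part of the B cell, plasma cell and erythroid signals in the differences of the other genes was not tested.

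The same genes were followed from day 5 to day 40 within irradiated hosts, by a direct test of day 40 against day 5. That test called 109 probe sets (1.25%), 82 higher (0.943%) and 27 lower (0.311%) at day 40. With the cluster term the count was 650 (7.48%, with 5.14% higher and 2.33% lower), without day-40 array 4 it was 25, without day-40 array 3 it was 67, and without day-5 array 4 it was 187. Arrays titled day 5 are described as sorted at day 6, as the unirradiated group was. The comparison shares the day-40 arrays with the one above, so each gene's means are given side by side.

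For some genes the day-5 mean lay near the unirradiated one. With n = 4 unirradiated, 8 day-5 and 4 day-40 arrays, the mean ± SD of Fasl was 28.7 ± 2.69, 28.3 ± 4.93 and 112 ± 19.4, and day 40 exceeded day 5 by 1.53 ± 0.09 (adjusted p = 6.25e-09). Ccl5 stood at 316 ± 179, 378 ± 198 and 2160 ± 484 in the same order, with 2.62 ± 0.37 (adjusted p = 0.00117) between day 40 and day 5. Il18r1 stood at 139.6 ± 34.8, 167 ± 31.4 and 421 ± 89.2 (1.25 ± 0.18 (adjusted p = 0.00121)). Prf1 rose over day 5 by 0.86 ± 0.13 (adjusted p = 0.00157), Ptpn22 by 1.12 ± 0.18 (adjusted p = 0.00277) and Pou6f1 by 1.17 ± 0.14 (adjusted p = 0.000312).

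For other genes the day-5 mean lay between or already at the day-40 level. Cxcr3 stood at 160.2 ± 22, 560.3 ± 166 and 1028 ± 152, and day 40 exceeded day 5 by 0.90 ± 0.20 (adjusted p = 0.0341). S100a6 stood at 56.9 ± 20.3, 507 ± 159.9 and 526 ± 83.5, with no difference past the threshold between day 40 and day 5 (0.12 ± 0.27 (adjusted p = 0.967)). Cnn3 stood at 145 ± 33.1, 30.4 ± 7.63 and 25.2 ± 3.42 (-0.16 ± 0.13 (adjusted p = 0.774)), and Nrip1 at 260.4 ± 34.5, 103 ± 32.9 and 88 ± 11.3 (-0.15 ± 0.18 (adjusted p = 0.876)). Itgae was lower at day 40 than at day 5 by a difference of -0.53 ± 0.11 (adjusted p = 0.0196). Il7r, which was not called against unirradiated hosts, stood at 787 ± 189 at day 5 and 2240 ± 697 at day 40, a difference of 1.47 ± 0.25 (adjusted p = 0.00545). Top2a stood at 226 ± 186 at day 5 and 35.2 ± 2.44 at day 40 (-1.91 ± 0.39 (adjusted p = 0.0194)).

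**Figure D5:**
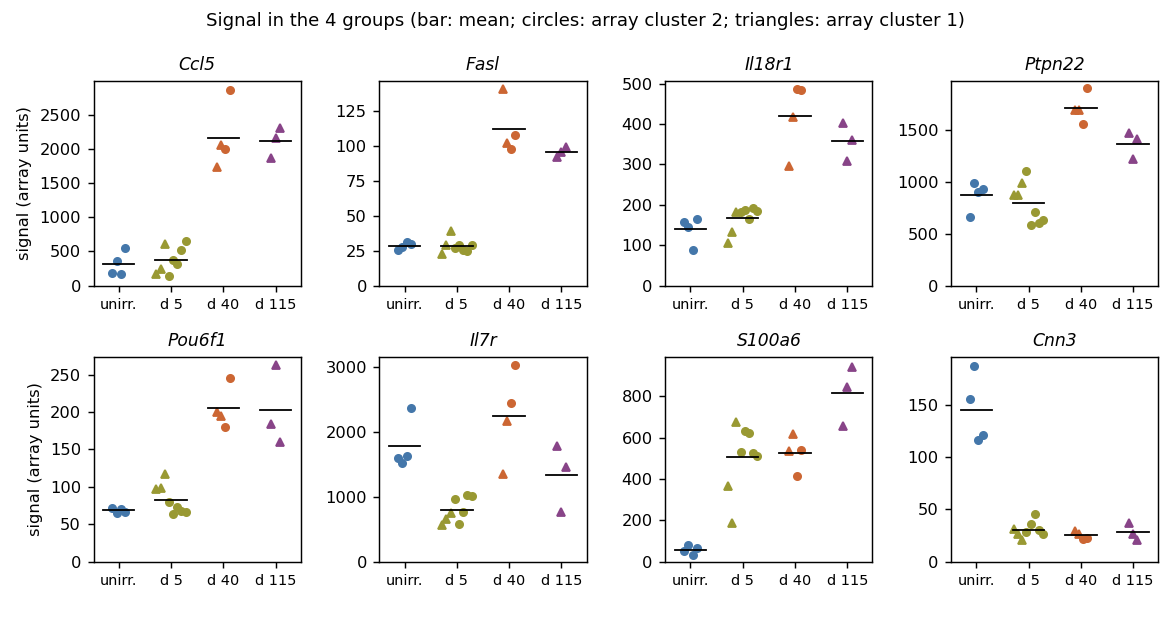
Signal of 8 genes in array units for every array of the unirradiated, day-5, day-40 and day-115 groups, with a bar at the group mean; circles are arrays of cluster 2 and triangles arrays of cluster 1. For Ccl5, Fasl, Il18r1, Ptpn22 and Pou6f1 the day-40 arrays lie above all unirradiated and day-5 arrays, while S100a6 and Cnn3 have day-5 means near the day-40 means.

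Between day 115 and day 40 few probe sets differed: 8 passed (0.092%), all higher at day 115, and 17 (0.196%) with the cluster term, 11 higher (0.127%) and 6 lower (0.069%). All day-115 arrays lie in cluster 1. Without day-40 array 1, which lies in cluster 1, 87 passed, and without day-40 array 2, 3 or 4 the count was 5, 5 or 3. It was 40 without day-115 array 1 and 20 without day-115 array 3. Of the genes above, Kcnj8 was the 1 that passed, and it was named because it passed this test. Kcnj8 stood at 42.1 ± 6.72 at day 40 and 80.1 ± 8.43 at day 115 (SD, n = 3), a difference of 0.73 ± 0.10 (adjusted p = 0.00393). Ccl5 stood at 2109 ± 229.5 at day 115 (-0.01 ± 0.47 (adjusted p = 0.992) against day 40), Fasl at 95.5 ± 3.71 (-0.19 ± 0.11 (adjusted p = 0.437)), S100a6 at 815 ± 146 (0.61 ± 0.33 (adjusted p = 0.41)) and Egr1 at 97.3 ± 4.27 (-0.49 ± 0.40 (adjusted p = 0.564)). With 3 and 4 arrays, a difference outside the threshold does not show that the levels are equal.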

How the data were processed

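Signals of 19 oligonucleotide arrays were used as deposited: the table holds 1 linear signal intensity per probe set and array, and how the authors computed and scaled these intensities is not stated (not given in the sources used here). Of 12488 probe sets, 66 controls were left out, and 10833 of the others had exactly 1 gene symbol in the platform table. Probe sets above the 30th percentile of mean signal (26.4) were tested, 8695 in all. Linear models of log2(signal + 16) over the 19 arrays used limma 3.58.1 (R 4.3.3), a factor for group and variances moderated along an intensity trend. Benjamini-Hochberg adjustment ran over every tested probe set, with a threshold of 0.05. The fit was tested on simulated data.

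Named genes were the 20 largest rises and 15 largest falls past the threshold with groups apart and 1 probe set per gene (the brightest), up to 4 called members per gene list, a panel of CD8 T cell genes, discordant probe sets of these, and up to 8 genes past the threshold against each of days 5 and 115. Array clusters came from average linkage on 1 minus the Pearson correlation. Alternatives changed the pseudocount, filter, normalisation, samples, cluster or block. Members and gene lists were chosen with earlier results of these data known. The number of arrays limits the precision.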

Additional observations from a re-analysis of the deposited data

Results flagged for a closer look

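In 150 groups of 4 arrays (75 named genes, both groups), 15 had 1 array far from the other 3, where chance flags about 1 in 20 groups. Among unirradiated hosts, array 2 was high for Ctla2b at 60.66 (others 18.5 to 20.76), for Lgals1 at 332 (others 121.7 to 137.8), for Nr4a1 at 155.5 (others 82.23 to 93.42) and for Mki67 at 32.79 (others 15.63 to 17.59). Unirradiated array 4 was high for Il7r at 2369 (others 1511 to 1632) and low for Xcl1 at 30.54 (others 35.38 to 36.28). Unirradiated array 3 was high for Il12rb1 at 57 (others 44.94 to 45.71) and low for Itga4 at 39.26 (others 47.97 to 49.56), and unirradiated array 1 was low for Eomes at 125.9 (others 200.7 to 208.5). Of these genes, Ctla2b and Itga4 were called, and their groups stayed apart with those arrays included.

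At day 40, array 1 was high for Gzmb at 136 (others 70.22 to 79.49) and Anxa2 at 455 (others 209.5 to 248.7), and array 2 for Ccr7 at 229.2 (others 82.91 to 100.8). Array 3 was low for Errfi1 at 142.5 (others 167.8 to 172.5) and Kcnj8 at 32.14 (others 44.55 to 46.71), and array 4 for Nr4a1 at 77.2 (others 90.45 to 92.24).

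By limma, 24 named genes differed between day 40 and day 5 within irradiated hosts, so that their difference from the unirradiated hosts was not the same at both days. Of all tested probe sets 1.25% passed that test. Many of the named genes were chosen through the same day-40 arrays, so their count cannot be compared with that share. The largest rises were those of Ccl5 at 2.62, Fasl at 1.53, Gzmm at 1.48, Il7r at 1.47, Il18r1 at 1.25, Pou6f1 at 1.17, Ctla2b at 1.12, Ptpn22 at 1.12, H2-Q10 at 1.08 and Stat4 at 1.07, all higher at day 40. Ccr2 was higher by 0.97, Cxcr3 by 0.90, Errfi1 and Prf1 by 0.86, Aqp9 by 0.76, Pfkp by 0.75, Cdk5rap3 and Il18rap by 0.72, Tnfrsf1b by 0.63 and Kcnj8 by 0.43. Lower at day 40 were Top2a at -1.91, Mki67 at -1.79, S100a4 at -0.60 and Itgae at -0.53. Between day 115 and day 40, Kcnj8 differed by 0.73, and it was named because it passed that test, as did 0.092% of all tested probe sets.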

How the results depend on the processing

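Against unirradiated hosts, the 130 calls at day 40 (101 higher, 29 lower) became 111 to 136 with other pseudocounts, filters, scalings or no intensity trend, with 16 lower under a filter at the 50th percentile. They became 273 (194 higher, 79 lower) in a fit on these 8 arrays only, 194 (157 higher, 37 lower) with the cluster term, 454 (352 higher, 102 lower) within cluster 2, and 46 (39 higher, 7 lower) without the day-40 arrays outside cluster 2. Leaving out 1 array at a time gave 54 to 138 calls, 36 to 109 higher and 15 to 29 lower. For the replicate numbers of the titles, the correlation of deviations in same-numbered pairs was 0.03, 0.18, 0.01 and 0.26, so the numbers were not taken to pair the samples; a fit with a replicate block gave 233 calls (160 higher, 73 lower).

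Day 40 against day 5 went from 109 calls to 46 in a fit on these groups only, 650 with the cluster term, 324 within cluster 2, 0 within cluster 1 and 0 with a replicate block, and to 25 to 187 without 1 array. In those limma fits 903 probe sets within cluster 1 and 1312 with the block had an unadjusted p under 0.05. Day 115 against day 40 went from 8 calls to 63 with no filter, 4 with a filter at the 50th percentile, 19 with median centring, 17 with the cluster term, and 3 to 87 without 1 array. It had 0 calls in a fit on these groups only, with a replicate block and within cluster 1, where limma gave 878, 358 and 167 probe sets at an unadjusted p under 0.05. The causes were not tested, except that the smaller sets hold fewer arrays.

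Of the 49 called genes named here, 48 kept their call with either other pseudocount, 44 with no filter or quantile normalisation, 46 with median centring or the cluster term, 44 within cluster 2, and 29 to 45 without 1 array. None of these 49 changed sign in any alternative that tested it. In the fits that only left arrays out this was fixed in advance, because the groups of these genes did not overlap. The alternatives were also fitted for Ifnar2, H2-D1, H2-K1, Itgb1, Ptprc and Slfn2, which were named besides, but most of their results are not given here. Egr2 passed only without day-40 array 3 (-0.75), and Bcl2 only with the cluster term (1.11) and within cluster 2 (1.10). List medians moved by more than 1 SD between arrays in 44 alternative values and by less in 544, and 11 of the 44 came with the cluster term.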
